A study of Mus musculus with 10 samples.

Results

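The 10 genes described here encode alarmins and antimicrobial proteins that keratinocytes and leukocytes make: the S100 proteins S100a8, S100a9 and S100a7a, the β-defensins Defb1, Defb3, Defb4, Defb6 and Defb14, lipocalin 2 (Lcn2) and cathelicidin (Camp). They were chosen by name, and all 10 were found among the 23282 entries that each table of the series holds. RNA of whole skin from C57BL/6 mice at 5 months of age was sequenced in 10 libraries. In 5 of them the mice lacked STAT3 in keratinocytes (STAT3cKO), and 5 were wild type (WT). Not given in the sources used here are the Cre driver, the sex of the mice, their housing and the body site. The labels do not say that each library came from its own mouse, so the p-values below measure the spread between these libraries.

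S100A8 and S100A9 pair into calprotectin, which withholds zinc and manganese from microbes and, once outside the cell, acts as a danger signal through TLR4 and RAGE. β-Defensins are small cationic peptides that damage microbial membranes, and some also attract immune cells through CCR6. Lipocalin 2 binds bacterial siderophores, and cathelicidin is cut by proteases into a membrane-active peptide. Cytokines of the IL-17, IL-22, IL-1 and IL-36 families are known to raise many of these proteins in keratinocytes, in part through STAT3, NF-κB and C/EBP factors.

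The deposited values behave as log2 of (scaled reads + 1), and "value" below means this scale. The QuantSeq kit reads 3′ ends, so the reads of a gene should not grow with its length. Levels of different genes are set side by side below on this ground. Other differences between genes in how well their ends are captured were not checked. The estimated depth was 7130000 to 18500000 reads, and WT 1, WT 2, STAT3cKO 4 and STAT3cKO 5 were the deeper libraries. STAT3cKO 2 had no read for 13308 entries, against 8565 to 11441 in the other 9 libraries. A gene without a read could still have had up to 3 reads, which is a value of 1.43 to 2.47 depending on the library. Stat3 itself had values of 9.7, 9.08, 10.27, 9.27 and 10.29 in WT 1 to 5, against 10.25, 9.98, 10.81, 9.49 and 10.13 in STAT3cKO 1 to 5, with a change of 0.41 ± 0.36 (SE, n = 5 per group, adjusted p = 0.7 by limma). Which exons were deleted is not stated in these sources, and other skin cells keep the gene, so the 3′ reads do not check the labels, and "STAT3cKO" below means the libraries labelled so.

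The 5 β-defensin genes lie on chromosome 8 and the 3 S100 genes on chromosome 3 (mm10). RefSeq promoters of GRCm38.p6, taken as the 250 bases before the RefSeq start, matched 7 of the 10 genes. The pair Defb6 and Defb3 is shown because these promoters are the most alike of the 21 pairs, with 190 of 250 bases identical (76.0%) and a longest shared run of 40 bases, while the levels of the genes differ widely. Both are on the plus strand, at chr8:19225228-19225477 and chr8:19293111-19293359, and capitals mark the letters TATAA, 29 and 44 bases before the RefSeq starts.
Defb6: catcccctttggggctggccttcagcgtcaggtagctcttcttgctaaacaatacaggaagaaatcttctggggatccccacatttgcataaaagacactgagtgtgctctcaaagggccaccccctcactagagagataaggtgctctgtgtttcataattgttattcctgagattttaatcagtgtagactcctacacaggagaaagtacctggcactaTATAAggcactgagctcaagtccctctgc
Defb3: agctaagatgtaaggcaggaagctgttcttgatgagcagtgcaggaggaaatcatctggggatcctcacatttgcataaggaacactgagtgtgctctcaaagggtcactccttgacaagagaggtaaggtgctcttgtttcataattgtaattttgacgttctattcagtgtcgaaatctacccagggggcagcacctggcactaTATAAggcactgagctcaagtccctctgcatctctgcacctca
The S100a9 promoter (chr3:90695722-90695971, minus strand) is shown because this gene had the widest range among members with reads in every library, and it held none of the motifs searched.
S100a9: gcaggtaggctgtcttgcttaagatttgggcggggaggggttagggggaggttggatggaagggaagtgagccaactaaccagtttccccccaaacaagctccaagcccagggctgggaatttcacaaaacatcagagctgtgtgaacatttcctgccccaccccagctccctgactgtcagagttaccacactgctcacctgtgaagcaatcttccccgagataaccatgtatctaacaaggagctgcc
S100a7a (plus strand) held the STAT motif, shown in capitals within chr3:90654123-90654151.
S100a7a: gacgatgtcaTTCCAGGAAtgcagttaag
The STAT motif searched was TTCNNNGAA, which reads the same on both strands. It stood in 1 of the 7 promoters, 169 bases before the RefSeq start of S100a7a, and in 7.02% of all 32851 promoters of this length. The GENCODE M21 gene of S100a7a starts further upstream, at 90654017, so the motif lies inside that gene. The Lcn2 window also lies wholly inside its GENCODE gene, and those of S100a8, Defb3 and Camp overlap theirs in part. The AP-1 motif TGANTCA, searched on both strands, stood in 0 of 7 and in 6.75% of all. TATAA, searched on the gene's strand in the 50 bases before the start and chosen after the sequences were read, stood in S100a8, Defb3 and Defb6 and in 4.93% of all promoters. These matches describe letters in the window only.

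Of the S100 alarmins, S100a8 (chromosome 3, 90668978 to 90670035, plus strand) and S100a9 (90692632 to 90695721, minus strand) are protein-coding neighbours, 22597 bases apart. S100a8 had values of 8.54, 8.14, 8.34, 9.02 and 6.47 in WT 1 to 5, against 6.50, 11.48, 7.38, 9.39 and 13.11 in STAT3cKO 1 to 5. STAT3cKO 5, STAT3cKO 2 and STAT3cKO 4 lay above every WT library, and STAT3cKO 1 and STAT3cKO 3 lay below 4 of the 5. The means were 8.10 ± 0.97 (SD, n = 5) and 9.57 ± 2.76, and the change of 1.47 ± 1.17 (SE; 95% interval -1.12 to 4.06) did not pass the test (limma adjusted p = 0.672; exact 2-sided permutation p = 0.317).

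S100a9, the partner subunit that carries the metal-binding tail of calprotectin, spread more. Its values were 7.88, 7.03, 8.29, 8.05 and 1.36 in WT and 9.37, 10.62, 6.09, 8.83 and 14.14 in STAT3cKO. Here 4 STAT3cKO libraries lay above all WT libraries, while STAT3cKO 3 was below 4 of them. The means were 6.52 ± 2.92 and 9.81 ± 2.93 (SD, n = 5 each). The change of 3.29 ± 1.67 (interval -0.41 to 6.99) was not called (limma adjusted p = 0.521; exact permutation p = 0.103). In estimated reads, S100a9 ran from 1 in WT 5 to 32059 in STAT3cKO 5, and S100a8 from 58 to 15655 in the same libraries. The 2 subunits did not keep a fixed ratio: S100a9 minus S100a8 was -0.66, -1.11, -0.05, -0.97 and -5.11 in WT and 2.87, -0.85, -1.29, -0.56 and 1.03 in STAT3cKO. S100a8 was thus the higher of the 2 in all 5 WT libraries and in STAT3cKO 2, STAT3cKO 3 and STAT3cKO 4, and S100a9 was in STAT3cKO 1 and STAT3cKO 5. In WT 3 they were nearly level, with 237 reads of S100a8 and 229 of S100a9.

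S100a7a, the mouse relative of human psoriasin (chromosome 3, 90654017 to 90658669, plus strand), was found in 3 libraries only: 207 reads in WT 4 (value 7.95), 148 in STAT3cKO 3 (7.33) and 199 in STAT3cKO 5 (6.82). The other 7 libraries had no read, and the gene was not tested for want of libraries with a value of 5. WT 4, STAT3cKO 3 and STAT3cKO 5 were among the 4 libraries with high hair shaft and inner root sheath genes. The mean of those 10 markers was 14.3, 13.7 and 10.51 there, 10.61 in STAT3cKO 1, and 0.06 to 5.15 in the other 6, and their part in the S100a7a reads was not tested. Of the 50-base words of the S100a7a transcript, 6.4% also occur in other genes, so a share of its reads is uncertain.

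**Figure D1:**
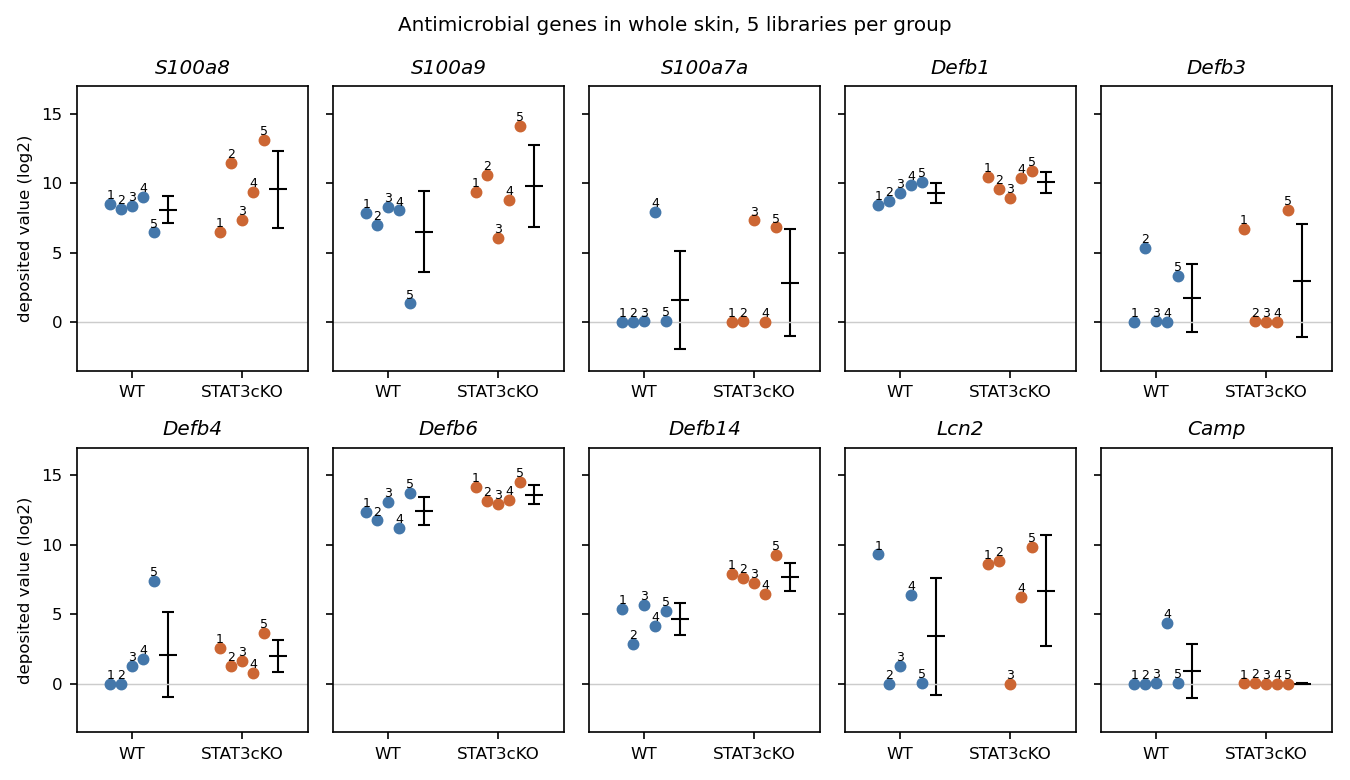
Value (log2 of scaled reads + 1) of each of the 10 genes in WT (blue) and STAT3cKO (orange) libraries, numbered by replicate; the bar and whiskers give the mean and SD of 5 libraries. Defb14 is the only gene whose STAT3cKO points (6.45 to 9.24) all lie above its WT points (2.86 to 5.68), and S100a8 and S100a9 reach 13.11 and 14.14 in STAT3cKO 5.

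Among the β-defensins, Defb14, the mouse counterpart of human β-defensin 3 (chromosome 8, 19194357 to 19195212, plus strand), separated the groups. Its values were 5.38, 2.86, 5.68, 4.15 and 5.22 in WT and 7.88, 7.62, 7.27, 6.45 and 9.24 in STAT3cKO. Every STAT3cKO library was above every WT library, which was so for 1.71% of the 11536 genes tested. The means of 4.66 ± 1.16 and 7.69 ± 1.02 (SD, n = 5 each) differed by 3.03 ± 1.28 (SE; interval 0.33 to 5.74), or 8.19-fold on the scale of scaled reads + 1. The exact permutation p was 0.00794, the smallest that 5 against 5 libraries allow, while the gene was not called over all genes (limma p = 0.0298, adjusted p = 0.395). The WT values rest on 61, 8, 37, 14 and 24 reads and the STAT3cKO values on 191, 139, 142, 117 and 1074, and Defb14 entered the test through 3 WT and 5 STAT3cKO libraries with a value of at least 5. A different number of cells that express a gene and a different amount of its RNA per cell cannot be told apart in whole skin, for this gene or the others.

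Defb6 (chromosome 8, 19225478 to 19228209, plus strand) was the most abundant of the 10 genes in every library. Its values were 12.38, 11.76, 13.07, 11.20 and 13.71 in WT and 14.19, 13.18, 12.95, 13.21 and 14.52 in STAT3cKO. STAT3cKO 1 and STAT3cKO 5 lay above all WT libraries, and the other 3 lay below WT 5. The change of 1.18 ± 0.46 (interval 0.20 to 2.17), or 2.27-fold, had an unadjusted limma p of 0.0218 and was not called (adjusted p = 0.351; exact permutation p = 0.0635). Defb6 was called when limma weighted the libraries by their quality (change 1.73, adjusted p = 0.0325), the only alternative under which any of the 10 genes was, and its adjusted p ran from 0.0325 to 0.826 over the alternatives.

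Defb1, the constitutive epithelial β-defensin (chromosome 8, 21776599 to 21795185, plus strand), had reads in every library. Its values were 8.42, 8.74, 9.32, 9.87 and 10.07 in WT and 10.44, 9.60, 8.95, 10.39 and 10.90 in STAT3cKO. STAT3cKO 1, 4 and 5 were above all WT libraries, and the other STAT3cKO values lay within the WT range. The change was 0.77 ± 0.44 (interval -0.15 to 1.69; limma adjusted p = 0.544; exact permutation p = 0.135). In the 4 deeper libraries alone it was 2.07 (limma adjusted p = 0.0507), and in the 6 shallower ones it was -0.09 (adjusted p = 0.992), the ends of the range over the alternatives. The 6 shallower libraries are also those in which entries without a read carry values slightly above 0. Depth and this difference between the libraries cannot be told apart.

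Defb3 and Defb4, which inflammation is known to induce, had too few libraries with a value of 5 to be tested. Defb3 (chromosome 8, 19293360 to 19295291, plus strand) had 50 reads in WT 2, 6 in WT 5, 85 in STAT3cKO 1 and 482 in STAT3cKO 5, and no read in the other 6 libraries. The values were 5.33, 3.34, 6.72 and 8.09 in those 4 libraries, so each group held libraries with and without a read (exact permutation p = 0.619 for the difference of means of 1.23). In spite of its like promoter, Defb3 stayed at or under 26.0 scaled reads per 1000000 of the library, where Defb6 stood at 208 to 2250.
Defb4 (chromosome 8, 19198706 to 19201545, plus strand) had 110 reads in WT 5 (value 7.39), 21 in STAT3cKO 5 (3.69), and 0 to 4 reads in each of the other 8 libraries. The difference of means was -0.09 (exact permutation p = 0.984). Of its 50-base words 5.7% also occur in Defb8, which had a value of 9.91 in the same WT 5 library, so reads of these 2 genes may be mixed there.

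Lcn2 (chromosome 2, 32384633 to 32388252, minus strand) had the largest SDs within groups among the 6 of the 10 genes that were tested. Its values were 9.31, 0.00, 1.26, 6.38 and 0.08 in WT and 8.61, 8.84, 0.01, 6.22 and 9.82 in STAT3cKO. WT 1 was as high as the high STAT3cKO libraries, with 956 reads, and STAT3cKO 3 had no read. The means were 3.41 ± 4.21 and 6.70 ± 3.97 (SD, n = 5 each), with a change of 3.30 ± 2.22 (interval -1.38 to 7.97; limma adjusted p = 0.598; exact permutation p = 0.278). Lcn2 passed the filter through 2 WT and 4 STAT3cKO libraries. Camp (chromosome 9, 109847379 to 109849617, minus strand) had 17 reads in WT 4 (value 4.39) and none in the other 9 libraries, so no difference was detectable at this depth (exact permutation p = 0.325).

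In all, 6 of the 10 genes were tested and 0 of 6 were called at a limma adjusted p under 0.05, where 114 of the 11536 genes tested (0.988%) were called. At an unadjusted p under 0.05, 2 of 6 passed (Defb6 and Defb14), beside 10.9% of all genes tested. The change was positive for 6 of 6 tested genes and for 43.8% of all genes tested, and the difference of means was positive for 8 of all 10. The median change was 2.25 over the 6 genes and -0.16 over all genes tested, and the median difference over all 10 was 1.23. Because S100a9, Defb14 and Lcn2 passed the filter with more STAT3cKO than WT libraries, the counts over the 6 tested genes describe those genes and not all 10.

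**Figure D2:**
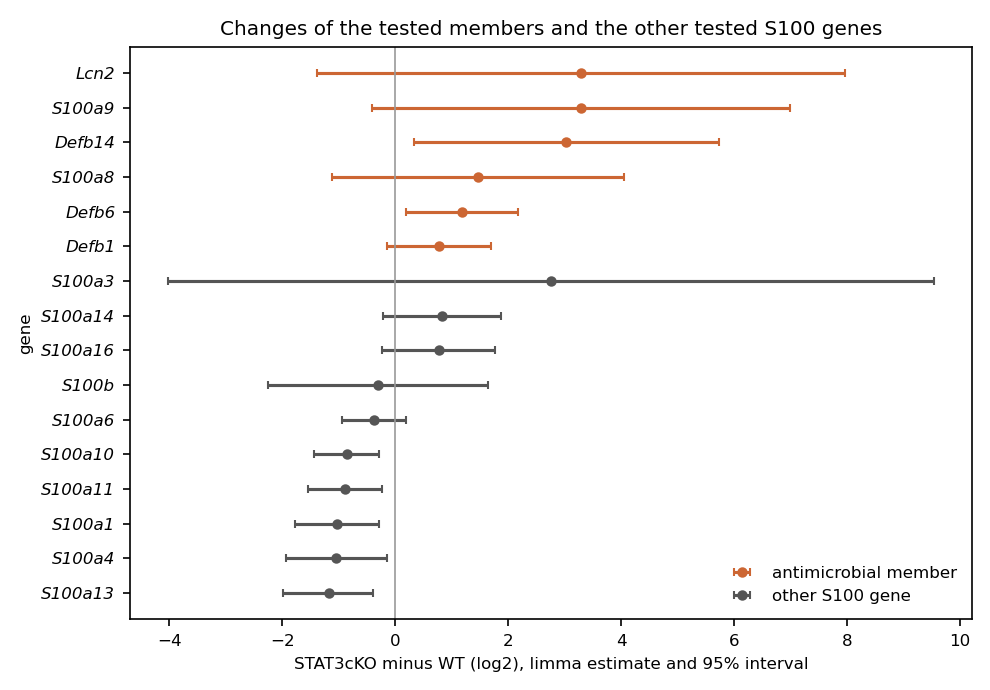
STAT3cKO minus WT (log2) as estimated by limma, with 95% intervals, for the 6 antimicrobial genes tested (orange) and the 10 other S100 genes tested (grey), 5 libraries per group. The antimicrobial genes lie between 0.77 and 3.30, with intervals above 0 for Defb6 and Defb14 only, while 7 of the 10 other S100 genes lie below 0.

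As shares of all scaled reads, the 10 genes summed to 626, 382, 871, 392 and 1380 RPM (scaled reads per 1000000 of the library) in WT 1 to 5, and to 2230, 1440, 832, 1160 and 5190 RPM in STAT3cKO 1 to 5. STAT3cKO 5, STAT3cKO 1 and STAT3cKO 2 had the highest sums, and STAT3cKO 3 and STAT3cKO 4 lay within the WT range. Defb6 alone made up 53.0 to 90.7% of the sum in WT and 43.4 to 88.3% in STAT3cKO. In STAT3cKO 5 S100a8 and S100a9 together made up 49.6% of the sum, in STAT3cKO 2 they made up 29.3%, and in the other 8 libraries 0.599 to 17.6%. Defb6 also led the group means. In WT, Defb6 (599 RPM) was followed by Defb1 (61.3), S100a8 (28.0), S100a9 (16.6) and Lcn2 (12.9). In STAT3cKO, Defb6 (1340) was followed by S100a9 (400), S100a8 (241), Defb1 (115), Lcn2 (35.5) and Defb14 (24.6). Without STAT3cKO 5 the STAT3cKO means were 1110 for Defb6, 98.0 for Defb1, 89.9 for S100a8, 66.9 for S100a9, 22.7 for Lcn2 and 16.3 for Defb14, so that Defb1 came after Defb6 in both groups. Defb6 came first in every library. S100a8, S100a9 and Lcn2 overlapped between libraries in both groups, and Defb1 overlapped with each of them in STAT3cKO, so their order there does not exceed the spread. In WT, Defb1 (30.7 to 99.6 RPM) lay above S100a9 (0.145 to 27.3) without overlap, and it overlapped with S100a8 and Lcn2.

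**Figure D3:**
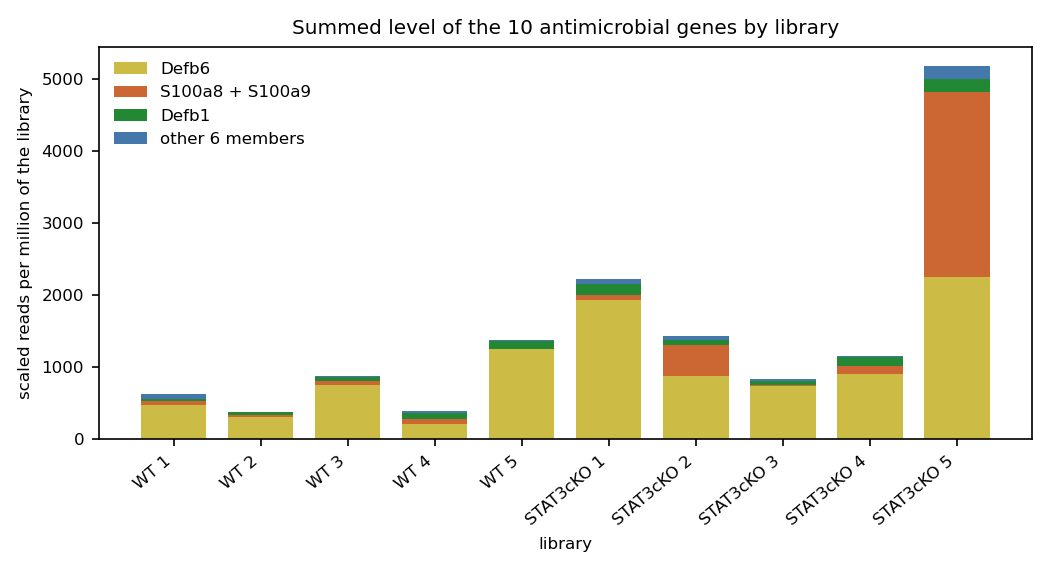
Scaled reads per 1000000 of the library (RPM), summed over the 10 genes and stacked by gene, in each of the 10 libraries. Defb6 is the largest piece of every bar except STAT3cKO 5, the tallest (5190 RPM), where S100a8 and S100a9 together make up 49.6%.

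Several lists of cell type markers shifted in level between WT and STAT3cKO, with sums that overlapped between the groups. Whether these markers moved with the antimicrobial genes from library to library was not tested. Their part in the values of those genes was not tested either. The 9 markers of suprabasal keratinocytes summed to 2890 to 14100 RPM in WT and 13500 to 29900 in STAT3cKO, and 9 of 9 had positive changes with 0 called and 7 at an unadjusted p under 0.05 (for Krt1 the change was 3.44, with an adjusted p of 0.054). The 8 basal keratinocyte markers summed to 781 to 2970 RPM in WT and 1980 to 5810 in STAT3cKO, with 0 of 8 called and 1 at an unadjusted p under 0.05. When every library was centred on these 8 genes, the changes were 0.68 for Defb6, 2.53 for Defb14, 0.27 for Defb1, 0.96 for S100a8, 2.78 for S100a9 and 2.79 for Lcn2, with the median of all genes at -0.67. The 8 adipocyte markers summed to 9920 to 56100 RPM in WT and 3790 to 23100 in STAT3cKO. Of these 8, Car3 fell (change -3.06, limma adjusted p = 0.0209), and none had a positive change. The 7 sebaceous gland markers summed to 2080 to 12300 RPM in WT and 8040 to 17600 in STAT3cKO. Of these, 4 of 7 had positive changes. Elovl3, a fatty acid elongase, rose (change 4.31, adjusted p = 0.00355 by limma), as did Soat1, a sterol esterifying enzyme (3.10, adjusted p = 0.00167). The other 5 were not called, with changes of 1.96 for Awat1, 0.49 for Scd1, -0.01 for Mgst1, -2.64 for Far2 and -2.78 for Awat2. The 6 skeletal muscle markers summed to 1680 to 26400 RPM in WT and 615 to 18600 in STAT3cKO, with 0 called by limma (2 at an unadjusted p under 0.05) and none positive. Of 7 T cell markers 5 were measured, summing to 8.86 to 77.2 RPM in WT and 0.156 to 25.1 in STAT3cKO.

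Neutrophils carry S100A8, S100A9 and cathelicidin in large amounts. Of 12 neutrophil markers 11 were measured, and they summed to 53.0 to 250 RPM in WT and 81.2 to 306 in STAT3cKO. Il1r2, a decoy receptor for IL-1, held most of these sums except in STAT3cKO 5. The 10 markers without it summed to 14.6 to 51.3 RPM in WT, to 9.67, 12.3, 0.512 and 3.59 RPM in STAT3cKO 1 to 4, and to 172 RPM in STAT3cKO 5. Of the 11 markers 2 were tested and 0 called by limma, with 1, Mmp9, at an unadjusted p under 0.05. Mmp9 had values of 5.80 to 7.30 in WT (change -5.33, limma adjusted p = 0.196). It had no read in STAT3cKO 1 to 4 and a value of 6.92, within the WT range, in STAT3cKO 5. The granule genes Elane, Mpo and Ltf had no read in any STAT3cKO library. Camp likewise had no read in STAT3cKO. Ngp, also a granule gene, had a value of 6.35 in STAT3cKO 5, no read in the other STAT3cKO libraries, and up to 6.29 in WT. In STAT3cKO 5, Cxcr2, the chemokine receptor of neutrophils, had a value of 8.34 against 0.70 to 3.82 in WT, and Retnlg 9.30, Mmp8 9.07 and Trem1 6.65. S100a9 stood at 1730 RPM in that library, where all 11 markers summed to 261 and S100a8 stood at 844. STAT3cKO 2, the library with the next highest S100a8 and S100a9, had the highest sum of all 11 markers, 306 RPM, of which Il1r2 held 294. In STAT3cKO 2, Mmp8, Retnlg, Ngp and Elane had no read, Trem1 had a value of 6.85 and Cxcr2 3.92.

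The keratins of activated keratinocytes and follicles were highest in STAT3cKO 5 as well: the mean of Krt6a, Krt6b, Krt16 and Krt17 was 13.38 there, 5.91 to 10.85 in the other STAT3cKO libraries and 3.29 to 9.81 in WT. Krt6a had a value of 15.32 and Krt16 of 11.07 in STAT3cKO 5. Without STAT3cKO 5 the change of S100a8 was 0.59 and the difference of means of Defb3 was -0.05. The other tested genes then had changes of 2.21 (S100a9), 2.65 (Defb14), 2.52 (Lcn2), 0.96 (Defb6) and 0.56 (Defb1). The median change of the 6 tested genes was 1.58 without this library.

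The other S100 genes are calcium-binding relatives that mostly act inside cells. Of 13 listed, 10 were tested and 0 were called, and 3 of 10 had positive changes, with a median of -0.62. An unadjusted limma p under 0.05 was found for 5 of 10. S100a10, the annexin A2 partner, had values of 12.09 to 12.73 in WT and 10.96 to 12.07 in STAT3cKO (change -0.86 ± 0.27, adjusted p = 0.171). S100a1 ran from 10.60 to 11.49 in WT and from 8.80 to 10.59 in STAT3cKO (change -1.03 ± 0.35, adjusted p = 0.22). In these 2 genes all STAT3cKO libraries lay below all WT libraries, as in 1.72% of all genes tested. S100a13 differed by -1.18 (adjusted p = 0.173) and S100a11 had one of -0.89 (adjusted p = 0.243), with overlapping groups.

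Of 23 other antimicrobial proteins, 8 were tested and 0 were called by limma (2 at an unadjusted p under 0.05), with a median change of -0.39 and 2 of 8 positive. Lyz2, the lysozyme of macrophages, had values of 9.69 to 11.03 in WT and 6.55 to 9.71 in STAT3cKO (change -2.0 ± 0.55, limma adjusted p = 0.1). The 10 macrophage markers, Lyz2 among them, summed to 853 to 2170 RPM in WT and 377 to 1860 in STAT3cKO. Ang, a secreted ribonuclease, had a change of 2.74 (adjusted p = 0.414), with WT 3 at 1.26 and the other 9 libraries at 6.84 or more. Lyz1 (-0.76, adjusted p = 0.582) and Rnase4 (-0.46, adjusted p = 0.588) did not pass either. Reg3g, a C-type lectin that binds bacterial walls, and Slpi, a protease inhibitor with antimicrobial activity, were too sparse to be tested, and are named here after their values were seen. Reg3g had no read in 9 libraries and a value of 10.77 in STAT3cKO 5. Slpi was at or under 1.15 in WT and had values of 5.29, 0.06, 5.94, 3.75 and 9.83 in STAT3cKO.

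Of 13 receptors for these proteins, 9 were tested and 0 were called by limma (3 at an unadjusted p under 0.05), with a median change of -0.93 and 1 of 9 positive. Tlr4, a receptor of S100A8 and S100A9, had values of 5.98 to 8.88 in WT and 0.04, 0.06, 7.22, 7.47 and 6.92 in STAT3cKO (change -3.68 ± 1.72, limma adjusted p = 0.449). Mcam, an adhesion receptor that binds S100A8 and S100A9, had values of 7.91 to 10.50 in WT and 7.16 to 7.64 in STAT3cKO, without overlap (change -1.61, adjusted p = 0.327). Cd36 (-0.79, adjusted p = 0.345) and Alcam (-2.54, adjusted p = 0.602) overlapped between groups. Ccr6, the β-defensin receptor, was at 0 in every library.

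Of 6 proteases known to cut cathelicidin, 2 were tested. Klk5, a kallikrein of the upper epidermis, rose from 8.88 ± 0.64 to 10.80 ± 0.61 (SD, n = 5 each; change 1.92, limma adjusted p = 0.0223), and Klk7 had a change of 1.05 (adjusted p = 0.184). Their substrate Camp had reads in WT 4 only.

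Of 29 upstream genes, 26 were measured, 18 tested and 0 called by limma (3 at an unadjusted p under 0.05), with a median change of 0.85 and 14 of 18 positive. The cytokines Il17a, Il17f, Il17c and Il22 were at 0 in every library. Il1b had values of 7.12, 5.33, 7.38, 6.46 and 7.27 in WT and 7.68, 9.58, 1.06, 8.11 and 12.02 in STAT3cKO, and it was highest in STAT3cKO 5 and STAT3cKO 2, as S100a8 and S100a9 were. Cebpb, a transcription factor of keratinocyte and myeloid genes, ran from 7.62 to 10.21 in WT and from 10.29 to 12.21 in STAT3cKO, without overlap (change 1.66 ± 0.50, limma adjusted p = 0.144). An exon of Cebpb overlaps Tmem189 on the other strand, and whether strand was used in counting is not stated. Its relative Cebpd had a change of 1.4 (adjusted p = 0.17), Tnfrsf1a, a TNF receptor, of 0.72 (adjusted p = 0.454), and Rela, an NF-κB subunit, of -0.86 (adjusted p = 0.527).

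**Figure D4:**
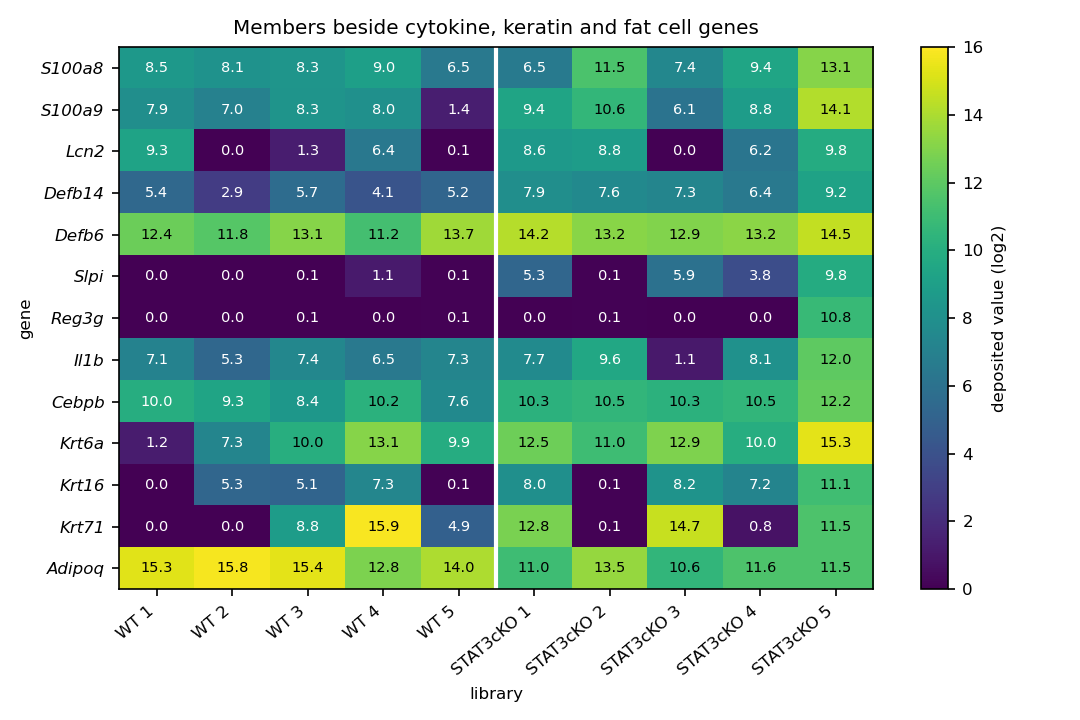
Value (log2 of scaled reads + 1, colour and number) of 5 of the antimicrobial genes and of 8 genes of cytokine response, keratin and fat in each of the 10 libraries, WT on the left. In STAT3cKO 5, S100a8, S100a9, Reg3g, Il1b, Krt6a and Krt16 are at their highest (10.77 to 15.32), and Adipoq is lower in STAT3cKO 1, 3, 4 and 5 than in WT.

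Among the 6 tested genes, 15 pairs were compared over the 10 libraries, and the points share library depth and tissue makeup. For S100a8 and S100a9 Pearson's r was 0.81 (permutation p = 0.00471, adjusted 0.0235) and Spearman's rho 0.71 (p = 0.0261, adjusted 0.0784), but r was 0.53 without STAT3cKO 2 and STAT3cKO 5. The relation of this pair thus rests in part on those 2 libraries. For Defb6 and Defb14 r was 0.82 (permutation p = 0.0038, adjusted 0.0235) and rho 0.75 (p = 0.0177, adjusted 0.0784). For this pair r was 0.73 without WT 4 and STAT3cKO 5, and 0.73 for deviations from the group means. For S100a9 and Lcn2 r was 0.73 (permutation p = 0.00192, adjusted 0.0235) and rho 0.73 (p = 0.0195, adjusted 0.0784), and r was 0.73 without WT 5 and STAT3cKO 5. In the 6 shallower libraries r was 0.63, 0.67 and 0.77 for these 3 pairs in turn, and the 4 deeper libraries are too few for a value. The other 12 pairs had r of 0.17 to 0.64, and none passed adjustment.

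Over all genes tested, the patterns most like that of S100a8 across the 10 libraries were those of Pvr (r = 0.92), Skiv2l2 (0.92), Pla2g7 (0.89), Snx4 (0.85) and Klhl24 (0.85). Those most like S100a9 were Timm8a1 (r = 0.93), Far1 (0.92), Zfp292 (0.92), Hdc (0.92) and Pnp (0.90). The 2 lists share no gene. None of these 10 genes was called (limma adjusted p = 0.235 to 0.989), and STAT3cKO 5 held the highest value of Pvr, Pla2g7, Timm8a1, Far1, Zfp292, Hdc and Pnp.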

How the data were processed

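RNA of whole skin was sequenced from 3′ ends with the QuantSeq kit, per the labels' protocols, in 5 STAT3cKO and 5 WT libraries. The authors deposited 1 table per library. Per the submitters' processing notes, Bowtie2, bedtools and the build mm10 were used. Not given in the sources used here are versions, annotation, scaling and the handling of duplicates and strand. No file header names the unit. The deposited values behave as log2 of (scaled reads + 1): among values of up to 20 reads, 88.8 to 100% of the multiples of 1 read's worth came out whole within 0.15. This worth gave the estimated reads and depths. Without molecular identifiers these cover counting error only. Values worth under 0.5 of a read count as no read, and in the 6 shallower libraries such entries carry values slightly above 0.

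From these values the following was computed. Entries with a value of at least 5 in at least 5 libraries (11536) were fitted with limma 3.58.1 in R 4.3.3, with group as the only term, a mean trend and robust moderation. Calls were made at a Benjamini-Hochberg adjusted p under 0.05 over all entries tested. Changes are STAT3cKO minus WT, and the + 1 understates those of genes with few reads. For the 10 genes, exact 2-sided permutation tests of the difference of means used all ways to assign the libraries and were not adjusted. Correlations were adjusted over 15 pairs, with 100000 permutations each. Positions come from GENCODE M21. Alternatives were median centring, quantile normalization, centring on 8 basal keratinocyte genes, a pseudocount of 16, other filters, no trend, array weights, a replicate block, a split by depth, leaving out STAT3cKO 2 and WT 3 together, and leaving out each library. Figures were drawn with matplotlib 3.10.9. From each list of genes related by function the text names every called gene and up to 4 tested genes with the lowest p. From the cell type marker lists it gives the summed level, the called genes and defining markers, and for likeness the 5 with the highest r. The genes, lists and tests were chosen with earlier results of these data known.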

Additional observations from a re-analysis of the deposited data

Results flagged for a closer look

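A library was marked when its gap to the nearest of the other 4 of its group exceeded Dixon's 95% limit for 5 values (0.71 of the group's range). Of 42 groups looked at, 6 had such a library. The limit marks about 1 in 20 groups of independent, normally distributed values, which these are not. S100a7a and Camp had no read in the other WT libraries, and the difference of S100a9 and S100a8 reuses the S100a9 value of WT 5. The number marked thus cannot be set against that rate. S100a9 was far below the rest of WT in WT 5, at 1.36, with the next value at 7.03. In the same library S100a9 minus S100a8 was -5.11, with the next WT value at -1.11. Defb4 was far above the rest of WT in WT 5, at 7.39, with the next value at 1.77. S100a7a was far above in WT 4, at 7.95, where the next WT value was 0.08. Camp was also far above in WT 4, at 4.39, next to 0.06. The mean of the 11 neutrophil markers was far above the other STAT3cKO libraries in STAT3cKO 5, at 5.37, with the next at 2.32.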

How the results depend on the processing

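The number of genes called (114) was 181 after quantile normalization, 68 when centred on basal keratinocyte genes (18 higher and 50 lower, against 61 and 53), 175 with a pseudocount of 16, 44 with no trend and no robust step (13 higher and 31 lower), 375 with array weights, 174 in the 4 deeper and 16 in the 6 shallower libraries (12 higher and 4 lower), and 61 to 207 with each library left out: 62 without WT 1, 62 without WT 2, 207 without WT 4, 61 without STAT3cKO 1 and 72 without STAT3cKO 5. Of the 10 genes 0 were called under each of these except array weights, which called 1, Defb6. With the replicate number as a block 66 genes were called, 0 of the 10 among them; the numbers did not pair the libraries (r of same-numbered deviations -0.155 to 0.016, and 0 of 5 correlated best with their own number). The median change of the tested genes stayed at 1.23 to 3.14.

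Directions turned for Defb1 (-0.09) and S100a7a (-0.22) in the 6 shallower libraries, for Defb3 (-0.05) without STAT3cKO 5, and for Defb4 in the 4 deeper libraries (2.23) and without WT 5 (1.24), STAT3cKO 2 (0.09) or STAT3cKO 4 (0.22); with each library left out Defb3 ranged from -0.05 to 2.12 and Defb4 from -0.61 to 1.24, S100a7a from 0.11 without STAT3cKO 3 to 2.82 without WT 4, and Camp from -1.11 to -0.01, the latter without WT 4. For Camp the difference was 0.00 in the 4 deeper libraries. The cause was not tested. With each library left out the change ranged from 0.59 to 2.24 for S100a8 and from 2.00, without WT 5, to 4.22 for S100a9. The ranges were 0.88 to 1.51 for Defb6, 2.58 to 3.35 for Defb14 and 2.44 to 4.97 for Lcn2. For Defb3, Defb4, S100a7a and Camp the lack of a read in a library does not show absence, since up to 3 reads could have been missed.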

Other observations

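The tables hold 38 other β-defensin genes, most of which are known from the male reproductive tract. Of these 29 were at 0 in every library, and none of the other 9 had enough libraries with reads to be tested. They are named here after their values were seen. Defb8 had a value of 9.91 in WT 5 and 4.16 in STAT3cKO 2, and at most 1.27 elsewhere. Defb7 had values of 7.17 in WT 1 and 7.67 in WT 5, Defb30 of 7.42 and Defb50 of 7.06 in STAT3cKO 3, Defb46 of 5.68 in WT 5, and Defb2 of 4.78 in STAT3cKO 1. In each of these the other libraries had few or no reads, and no β-defensin outside the 10 genes had reads in every library.

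Of the neutrophil markers, Mpo, Ltf and Elane had reads in WT libraries only, while Mmp8 (9.07) and Retnlg (9.30) were highest in STAT3cKO 5. Mpo, the peroxidase of azurophil granules, had values of 7.13 in WT 1, 4.0 in WT 3 and 6.16 in WT 5. Ltf, the lactoferrin of specific granules, had values of 4.95, 4.49 and 7.02 in WT 1, WT 4 and WT 5. Neither had a read in any STAT3cKO library, and neither was tested, with values of at least 5 in too few libraries.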
